A study of Mus musculus with 6 samples.

Results

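Histone genes encode the proteins that wrap DNA into nucleosomes, and 61 of the 14912 rows of the deposited expression table carried a histone symbol. Rows were chosen by symbol alone. A symbol beginning with Hist1h, Hist2h, Hist3h or Hist4h put a gene in the cluster class, with 51 rows, and a symbol beginning with H2af, H3f3 or H1f put it in the variant class, with 10 rows. The cluster rows were 5 genes for the linker histone H1, 13 for H2A, 15 for H2B, 8 for H3 and 10 for H4. Of the cluster rows, 42 lay on chromosome 13, 6 on chromosome 3, 2 on chromosome 11 and 1 on chromosome 6. The variant rows were 2 H1 genes (H1f0 and H1fx), 6 H2A genes (H2afj, H2afv, H2afx, H2afy, H2afy2 and H2afz) and 2 H3 genes (H3f3a and H3f3b).

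The libraries came from bone marrow of wild-type C57BL/6J mice grown into dendritic cells with 50 ng/ml FLT3LG, the growth factor that drives this lineage, in medium renewed on day 7. The 3 midkine libraries came from cells given recombinant human midkine, a secreted heparin-binding growth factor, at 10 ng/ml for the last 2 days. The 3 control libraries came from cells given FLT3LG without midkine. The labels give the cells as bone marrow derived dendritic cells and do not state a sort, so each library is RNA of a whole culture, in which fewer cells of a type and less RNA per cell cannot be told apart. The labels do not say whether replicates came from separate mice or cultures, so midkine cultures and control cultures below name groups of 3 libraries each. The p-values therefore reflect only the variation among these 6 samples, part of which may be technical.

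The mRNAs of most cluster genes are made during S phase, when new DNA needs new nucleosomes, and end in a short stem-loop that binds the protein SLBP in place of a poly(A) tail. Variant genes such as H2afz and H3f3a are transcribed through the whole cell cycle and end in a poly(A) tail. The libraries were made with QuantSeq, which starts cDNA synthesis from an oligo(dT) primer on poly(A), so a cluster gene was counted here mainly where a transcript carried adenines at or near its end. Some cluster genes are known to give such polyadenylated transcripts in differentiated cells, from signals downstream of the stem-loop.

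The libraries held 5685055 to 6453768 reads in midkine cultures and 5089338 to 5532055 reads in control cultures. Mitochondrial ribosomal RNA took 18.1% to 20.9% of reads in midkine libraries and 9.33% to 9.86% in control libraries, and these reads enter a scaling to total counts. Among genes with a mean normalised count of at least 10, 11844 were tested with limma on log2(value + 1), and all fold changes here are midkine minus control on that scale. At a Benjamini-Hochberg adjusted p under 0.05, 20.9% of all genes tested were called higher and 21.8% lower, with a median change of -0.01 on the log2 scale. With scaling to total counts that median was -0.26, and 10.8% were called higher and 40.7% lower. With ribosomal RNA left out of the totals it was -0.09, and 2023 genes were called higher and 3178 lower. The edgeR quasi-likelihood test on the recovered reads called 21.8% higher and 21.7% lower.

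The stem-loop is the sequence that separates the classes of mRNA, and the length of transcript annotated beyond it differs among genes. A search of the GENCODE vM21 transcript models (GRCm38), on the sense strand and within 150 bases after the stop codon, looked for a stem of 6 bases that begins GG and is complementary to an arm ending CC, around a loop of 4 bases beginning with T. It found the element in 36 of 51 cluster models (70.6%), in 1 of 10 variant models and in 38 of 21638 other protein-coding models (0.176%). The variant with a stem-loop was H2afx, whose protein is phosphorylated around DNA breaks. In 8 cluster models no base follows the stop codon, so no element could be found there. The most frequent form, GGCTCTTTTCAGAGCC, stood in 21 cluster models, and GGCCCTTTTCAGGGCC in 6. Shown are the stem-loops of the cluster genes called higher, of those called lower by more than 1 on the log2 scale, of Hist1h1e as a second linker histone gene and of the variant H2afx. They are given with 5 bases on either side where the model holds them, read 5′ to 3′, with the 16 bases of the element in capitals.
Hist1h1c (chr13:23739507-23739532, + strand): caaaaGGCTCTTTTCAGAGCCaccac
Hist1h1e (chr13:23621777-23621802, - strand): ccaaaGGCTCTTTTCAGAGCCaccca
Hist1h3d (chr13:23576239-23576264, + strand): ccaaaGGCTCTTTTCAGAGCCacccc
Hist1h3a (chr13:23761885-23761910, - strand): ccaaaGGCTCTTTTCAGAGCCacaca
Hist1h2ap (chr13:21833026-21833049, - strand): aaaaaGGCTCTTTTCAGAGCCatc
Hist1h2ab (chr13:23751567-23751592, + strand): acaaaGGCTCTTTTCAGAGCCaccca
Hist1h2bk (chr13:22036295-22036320, + strand): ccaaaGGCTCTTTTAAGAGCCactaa
Hist1h4n (chr13:21831793-21831818, - strand): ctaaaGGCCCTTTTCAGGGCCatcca
Hist2h2ac (chr3:96220413-96220438, - strand): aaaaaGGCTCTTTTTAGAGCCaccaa
H2afx (chr9:44335235-44335260, + strand): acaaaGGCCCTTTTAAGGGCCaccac
The element of Hist1h1c, Hist1h1e, Hist1h3d, Hist1h3a, Hist1h2ap and Hist1h2ab was the same in all 16 bases. Hist1h1c, Hist1h3d and Hist1h3a were called higher in midkine cultures and Hist1h1e, Hist1h2ap and Hist1h2ab lower. Hist1h3a and Hist1h2ap had to differ to pass the filter on the mean, and the calls of Hist1h1e and Hist1h3a were lost in some alternatives. A link of the element to the changes was not tested. A poly(A) signal, either AATAAA or its weaker form ATTAAA, stood in the last 40 bases of 13 of 51 cluster models (25.5%), of 8 of 10 variant models (80%) and of 70.6% of the other models.

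Among cluster genes with enough counts to test, more were called lower than higher in midkine cultures, while the linker histone gene Hist1h1c and the H3 genes Hist1h3d and Hist1h3a were called higher. Of 51 cluster genes, 25 passed the filter on the mean and 26 did not. Of the 25, limma called 13 lower and 3 higher, against 21.8% and 20.9% of all genes, and 9 were not called. The median change of the 25 was -0.54, within a range of -1.83 to 1.30, and 21 of the 25 values were negative. Midkine and control libraries did not overlap for 19 of the 25, with midkine lower in 16 and higher in 3, and over all genes tested midkine was lower without overlap in 26.2% and higher in 25.1%. Of those that passed, 6 had a mean under 10 in 1 of the groups, midkine for 5 and control for 1, so those 6 had to differ to pass, and the counts and median of the 25 do not speak for the class. The mean was lower in midkine cultures for 21 of the 25, but for 9 of the 26 under the filter, and so for 30 of 51 in all. With no filter on the mean, 14 of 51 were called lower and 4 higher, against 17.4% and 17.2% of all genes, with a median of -0.33. The edgeR test called 15 of the 25 lower and 3 higher.

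In the variant class, H2afz, H2afv, H2afx and H3f3a were called lower and H1f0 and H2afj higher. All 10 variant genes passed the filter, and limma called 4 lower and 2 higher, against 21.8% and 20.9% of all genes, so the share called higher was near that of all genes. Their median change was -0.18, within a range of -0.95 to 0.53, and edgeR called 4 lower and 1 higher. Without midkine replicate 1 the median was -0.11. The difference between the classes was not tested, since members were grouped with results of these data known and genes are not replicates. Scaling to total counts gave 19 lower and 3 higher cluster genes with a median of -0.79, and 5 lower and 1 higher variant genes with a median of -0.43. Under that scaling 40.7% of all genes were lower and 10.8% higher, with a median of -0.26, and the 10 variant genes lay near these shares.

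**Figure D1:**
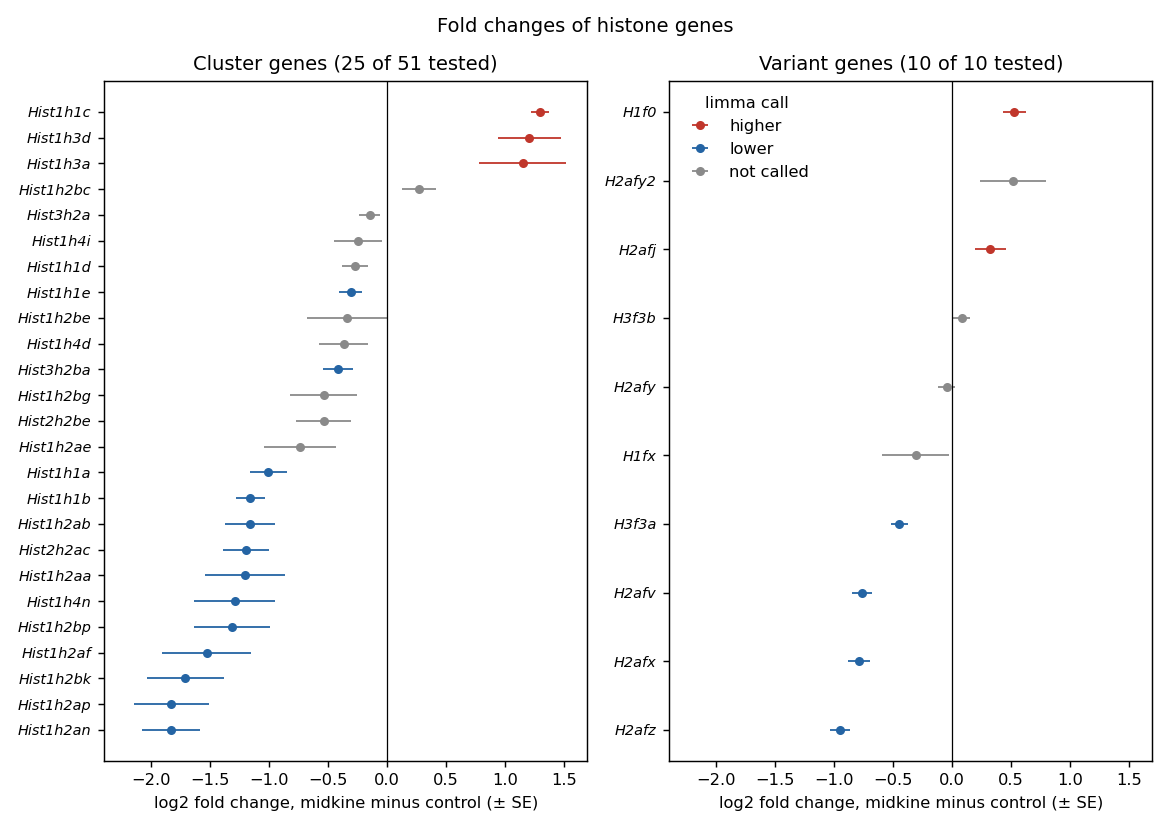
Log2 fold change (midkine minus control, on the log2(value + 1) scale) with its standard error for the 25 cluster and 10 variant histone genes tested, coloured by the limma call at an adjusted p under 0.05. Cluster genes run from -1.83 to 1.30, with Hist1h1c, Hist1h3d and Hist1h3a at the top, and variant genes run from -0.95 to 0.53.

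Linker histones, which bind the DNA between nucleosomes, showed both directions within 1 family. Hist1h1c (chromosome 13, 23738808 to 23740367, + strand) had normalised counts of 1794, 1858 and 1864 in midkine libraries, against 800, 722 and 716 in control libraries. Every midkine library lay far above every control library. The mean was 1839 ± 38.9 in midkine cultures and 746 ± 46.8 in control cultures (SD, n = 3 each), a change of 1.30 (SE 0.08, limma adjusted p = 6.44e-13). Over the alternatives tried its adjusted p reached at most 0.000256, and with scaling to total counts the change was 1.04.

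Hist1h1b, another H1 gene of the same cluster on chromosome 13 (21779883 to 21780625, - strand), went down. It had 272, 176 and 226 normalised counts in midkine libraries and 561, 440 and 490 in control libraries, with no overlap. The change was -1.16 (SE 0.12, limma adjusted p = 2.95e-08), so that its mean was 2.21-fold lower in midkine cultures. Hist1h1a, the H1 gene with the fewest counts of the 5, had 51.8, 48.6 and 48.4 in midkine libraries against 107, 102 and 93.8 in control libraries. These groups were also apart, and the change was -1.01 (SE 0.16, limma adjusted p = 1.02e-05).

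The other cluster H1 genes differed little. Hist1h1e had 845, 615 and 773 in midkine libraries and 1001, 859 and 888 in control libraries. Its highest midkine library came close to its lowest control library without reaching it. The change of -0.31 was called by limma (adjusted p = 0.0135), but not without midkine replicate 2 (-0.18, adjusted p = 0.119), without control replicate 1 (-0.24, adjusted p = 0.0641) or without a variance trend (adjusted p = 0.135). All 50-base stretches in the last 300 bases of its model occur in other gene models too, and its exons overlap those of Hist1h2be on the same strand, so its counts are uncertain. Hist1h1d, with 267, 243 and 248 in midkine libraries against 340, 257 and 323 in control libraries, overlapped between groups and was not called (-0.27, limma adjusted p = 0.0507).

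The 2 variant linker histone genes lie outside the clusters. H1f0, whose protein accumulates in cells that have stopped dividing, had 364, 443 and 398 in midkine libraries against 271, 276 and 285 in control libraries. All midkine values were above all control values. The mean was 401 ± 39.5 in midkine cultures and 277 ± 6.79 in control cultures (SD, n = 3 each), a change of 0.53 (SE 0.10, limma adjusted p = 9.75e-05) that was 0.27 with scaling to total counts (adjusted p = 0.0409). H1fx, a less studied member, had few counts, 13.5 to 19.2 in midkine libraries and 17.9 to 22.9 in control libraries, overlapped and was not called (limma adjusted p = 0.407).

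The make-up of the linker histone reads also differed between groups. The ratio of Hist1h1c to the sum of the other 4 cluster H1 genes was 1.25, 1.72 and 1.44 in midkine libraries and 0.398, 0.436 and 0.399 in control libraries. Hist1h1c was the larger side of that ratio in every midkine library and the smaller side in every control library. The ratio of H1f0 to Hist1h1b was 1.34, 2.52 and 1.76 in midkine libraries and 0.483, 0.627 and 0.581 in control libraries. These are ratios of read counts from 3′ ends within a library, so they do not depend on the scaling, and they are not ratios of protein.

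**Figure D2:**
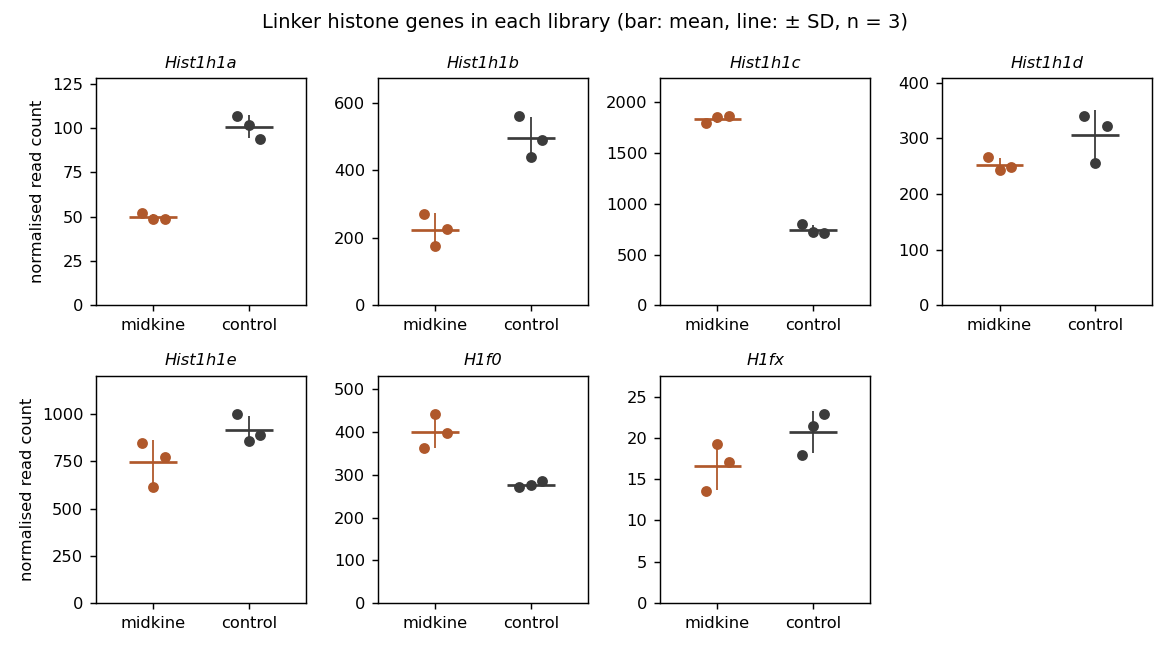
Normalised counts of the linker histone genes in each library, with midkine left of control, points for libraries and bars for the mean and SD (n = 3 each), each panel on its own linear axis from 0. Hist1h1c and H1f0 are higher in all 3 midkine libraries, and Hist1h1b and Hist1h1a are lower in all 3.

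The promoters of Hist1h1c and Hist1h1b are shown because these linker histone genes moved in opposite directions. Both hold CCAAT and AAACACA. The exact letters TATAAA were found in the Hist1h1b promoter and not in that of Hist1h1c, which holds TATATATA after its CCAAT. Only exact letters were searched, and a link of these letters to the changes was not tested. They are the 250 bases before and 50 after the gene start in RefSeq (GRCm38.p6), with the CCAAT box, the TATA box TATAAA and the H1 element AAACACA, found on either strand, in capitals.
Hist1h1c promoter (chr13:23738557-23738856, + strand): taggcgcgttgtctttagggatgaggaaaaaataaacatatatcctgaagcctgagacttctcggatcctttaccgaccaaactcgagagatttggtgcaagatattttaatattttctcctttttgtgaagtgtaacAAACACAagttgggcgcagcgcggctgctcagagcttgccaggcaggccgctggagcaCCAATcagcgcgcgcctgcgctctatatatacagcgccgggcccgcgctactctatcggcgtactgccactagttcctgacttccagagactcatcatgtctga
Hist1h1b promoter (chr13:21780576-21780875, - strand): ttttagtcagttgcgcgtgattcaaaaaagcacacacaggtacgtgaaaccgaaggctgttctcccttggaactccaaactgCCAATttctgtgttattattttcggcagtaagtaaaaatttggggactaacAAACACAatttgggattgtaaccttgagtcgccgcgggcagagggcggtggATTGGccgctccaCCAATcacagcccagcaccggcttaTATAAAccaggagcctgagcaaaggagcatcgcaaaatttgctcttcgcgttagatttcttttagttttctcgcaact
RefSeq promoters were found for 46 cluster and 9 variant genes. CCAAT, searched on both strands, stood in 39 of 46 cluster promoters (84.8%), in 6 of 9 variant promoters (66.7%) and in 37.8% of 26970 other promoters of the same length. All H1, H2A, H2B and H3 promoters of the cluster class held it, against 2 of 9 H4 promoters. TATAAA stood in 56.5% of cluster promoters and 14.1% of the others. The octamer ATTTGCAT stood in 6 of 12 H2A and 5 of 13 H2B promoters and in 1.71% of the others. AAACACA, known as an H1 promoter element, stood in 4 of 5 cluster H1 promoters and in 7.12% of the others. A match is a description of these letters and not of a bound site.

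Core histone genes of the cluster class, those for H2A, H2B, H3 and H4, had low counts. Those tested and called were mostly lower, but some of them had to differ to pass the filter. The H2A genes had 6 of 8 tested members called lower and none higher by limma, against 21.8% and 20.9% of all genes. Their median was -1.20. Hist1h2af and Hist1h2ap passed only through their control libraries, so this count and median do not speak for the H2A genes. Hist1h2an (chromosome 13, 21786826 to 21787218, - strand) had 15.8, 11.0 and 15.1 normalised counts in midkine libraries against 53.8, 47.6 and 54.2 in control libraries. The groups lay well apart, with a 3.71-fold lower mean in midkine cultures (log2 change -1.83, SE 0.24, limma adjusted p = 1.01e-06). Hist1h2ap, with 12.4, 6.41 and 7.06 in midkine libraries against 31.2, 28.0 and 37.5 in control libraries, had a 3.74-fold lower mean (log2 change -1.83, SE 0.32, limma adjusted p = 4e-05). With a midkine mean of 8.62, it passed the filter only through its control libraries.

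The remaining H2A genes that fell did so by a smaller amount. Hist2h2ac, in the cluster on chromosome 3, had 36.1, 29.3 and 35.3 in midkine libraries against 60.4, 94.2 and 83.4 in control libraries (-1.20, SE 0.20, limma adjusted p = 1.97e-05). Hist1h2ab had 30.4, 21.1 and 28.2 in midkine libraries against 53.8, 56.9 and 70.9 in control libraries (-1.16, SE 0.21, limma adjusted p = 7.97e-05). Neither gene overlapped between groups. Hist1h2af and Hist1h2aa, outside the rule for named genes, were also called, at -1.53 and -1.21. Hist1h2af passed the filter only through its control libraries, and Hist1h2aa was not called without control replicate 3 (-0.88, limma adjusted p = 0.0773). Hist3h2a, the most abundant core histone row of the cluster class, had 461, 462 and 516 in midkine libraries and 554, 486 and 552 in control libraries. Its groups overlapped and it was not called (-0.15, limma adjusted p = 0.2), although scaling to total counts gave -0.40 (adjusted p = 0.000876).

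Of 7 H2B genes tested, 3 were called lower and none higher, against 21.8% and 20.9% of all genes, with a median of -0.54. Hist1h2bk had 12.4, 5.50 and 9.08 in midkine libraries against 32.1, 25.2 and 34.4 in control libraries, which did not overlap (-1.71, SE 0.32, limma adjusted p = 0.000123). The others called were Hist1h2bp (-1.32) and Hist3h2ba (-0.42), and Hist3h2ba was not called without control replicate 1 (-0.32, limma adjusted p = 0.0645). Hist1h2bk and Hist1h2bp, with midkine means of 8.99 and 8.74, passed the filter only through their control libraries. The count and median of the H2B genes therefore do not speak for the type. Hist1h2bc was the only tested H2B gene with a positive change. It had 98.0, 105 and 117 in midkine libraries against 79.3, 102 and 84.4 in control libraries. Its groups overlapped and it was not called (0.27, limma adjusted p = 0.137). Of 3 H4 genes tested, Hist1h4n, which also passed only through its control libraries, was called lower (-1.29, limma adjusted p = 0.00373), and Hist1h4d and Hist1h4i were not called (-0.37 and -0.25). These genes, apart from Hist1h2bk, were named after their values were seen.

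Of 8 H3 genes in the table, 2 were tested and both were called higher, against 20.9% of all genes. Since 6 were not tested and Hist1h3a had to differ to pass the filter, the 2 do not speak for the H3 genes. Hist1h3d had 36.1, 59.6 and 41.4 in midkine libraries against 27.4, 17.7 and 13.5 in control libraries, with no overlap (1.21, SE 0.27, limma adjusted p = 0.00068). Hist1h3a had 12.4, 27.5 and 19.2 in midkine libraries against 5.67, 10.3 and 8.34 in control libraries, also with no overlap (1.15, SE 0.37, limma adjusted p = 0.014). The midkine spread of Hist1h3a was wide: it was not called without midkine replicate 2 (0.89, limma adjusted p = 0.111) or without control replicate 1 (0.95, limma adjusted p = 0.0552), and it passed the filter only through its midkine libraries.

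The 26 cluster genes under the filter had 0 to 18 reads in any library, and 6 cluster genes had no read in at least 1 library. For 22 of the 26 the groups overlapped. Midkine was higher in all libraries for Hist1h2ac, with 37 reads over the midkine libraries against 16 over the control libraries, and for Hist1h4h, with 25 against 12. Midkine was lower for Hist1h2ag, with 5 reads against 22, and for Hist1h3c, with 12 against 25. None of the 26 was tested in the main fit, so these differences are described and not called. Over all genes tested, midkine was lower without overlap in 26.2% and higher in 25.1%. That share was not counted for genes under the filter. Just outside the filter lay Hist1h4c and Hist2h4, with means of 9.08 and 9.14, and just inside lay Hist1h2be and Hist1h3a, with 13.3 and 13.9.

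The summed level of the cluster class showed less than its members. All 51 cluster genes together came to 4412, 4086 and 4452 normalised counts in midkine libraries and 4307, 3801 and 4091 in control libraries, which overlapped, with a ratio of means of 1.06. Without Hist1h1c the sums were 2618, 2229 and 2588 in midkine libraries against 3507, 3079 and 3375 in control libraries, which did not overlap, and the ratio was 0.746. The ratio was 0.698 for the other 4 cluster H1 genes, 0.732 for H2A, 0.789 for H2B, 0.924 for H4 and 1.72 for H3. Without Hist1h3d and Hist1h3a, the other 6 H3 genes gave a ratio of 1.06, from sums of 24.8 to 35.3 in midkine libraries and 26.1 to 27.4 in control libraries, which overlapped. The 10 variant genes summed to 15895, 16282 and 16121 in midkine libraries against 21051, 18798 and 19067 in control libraries, a ratio of 0.82. The ratio of all cluster reads to variant reads was 0.278, 0.251 and 0.276 in midkine libraries and 0.205, 0.202 and 0.214 in control libraries, with every midkine library higher. Without Hist1h1c, a choice made after the values were seen, it was 0.165, 0.137 and 0.161 in midkine libraries and 0.167, 0.164 and 0.177 in control libraries, which overlapped.

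Among the variant genes, both copies of H2A.Z, the variant found at promoters and regulatory elements, fell. H2afz (chromosome 3, 137864487 to 137866922, + strand) had 2477, 2445 and 2578 normalised counts in midkine libraries against 5692, 4474 and 4468 in control libraries. The groups did not overlap, and the mean was 1.95-fold lower in midkine cultures (log2 change -0.95, SE 0.09, limma adjusted p = 1.29e-09). H2afv, the second H2A.Z gene, had 683, 636 and 663 in midkine libraries against 1199, 1016 and 1167 in control libraries (-0.77, SE 0.08, limma adjusted p = 3.87e-08). The ratio of H2afz to H2afv was 3.63, 3.84 and 3.89 in midkine libraries and 4.75, 4.40 and 3.83 in control libraries, which overlapped.

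H2afx (chromosome 9, 44334694 to 44336077, + strand), the variant with a stem-loop, moved by a like amount. It had 316, 312 and 363 in midkine libraries against 626, 533 and 557 in control libraries, with no overlap (-0.79, SE 0.10, limma adjusted p = 2.16e-07). Its mRNA is known to occur both with a stem-loop end and with a poly(A) tail, and its model continues for 822 bases past the stem-loop to a poly(A) signal. Counted with the cluster genes, it left the 9 other variant genes with a median of -0.04.

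The pair of genes for the replacement histone H3.3, which is put into chromatin outside S phase, did not move together. H3f3a (chromosome 1, 180800832 to 180813943, - strand) had 2411, 2514 and 2404 in midkine libraries against 3532, 3248 and 3217 in control libraries. The groups were apart, with a 1.36-fold lower mean in midkine cultures (log2 change -0.45, SE 0.07, limma adjusted p = 2.05e-05). H3f3b had 6378, 6542 and 6585 in midkine libraries against 6448, 5972 and 6021 in control libraries, overlapped and was not called (0.08, limma adjusted p = 0.393). The sign of H3f3b depended on the scaling, with -0.18 under total counts (adjusted p = 0.0715) and -0.22 under quantile normalization (adjusted p = 0.0131). The ratio of H3f3a to H3f3b, which no scaling of whole libraries alters, was 0.378, 0.384 and 0.365 in midkine libraries and 0.548, 0.544 and 0.534 in control libraries. All midkine ratios were below all control ratios, with a narrow spread in each group.

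MacroH2A genes, whose variant histone has a large extra domain and marks silent chromatin, were not called. H2afy had 2985, 3099 and 2852 in midkine libraries against 3099, 3024 and 3089 in control libraries and overlapped (-0.04, limma adjusted p = 0.653), while scaling to total counts gave -0.30 (adjusted p = 0.00285). H2afy2 had 19.2, 30.2 and 26.2 in midkine libraries against 19.8, 15.9 and 15.6 in control libraries, which overlapped by 1 library (0.52, limma adjusted p = 0.14), and its exons overlap Aifm2 on the opposite strand. H2afj, for an H2A variant that accumulates in senescent human fibroblasts, had 249, 242 and 235 in midkine libraries against 146, 219 and 225 in control libraries. The groups did not overlap, but the call was at the threshold (0.32, SE 0.13, limma adjusted p = 0.0498). It was lost in 14 alternatives, edgeR included (adjusted p = 0.0504), and without control replicate 1, the lowest library, the change was 0.12 (limma adjusted p = 0.397).

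**Figure D3:**
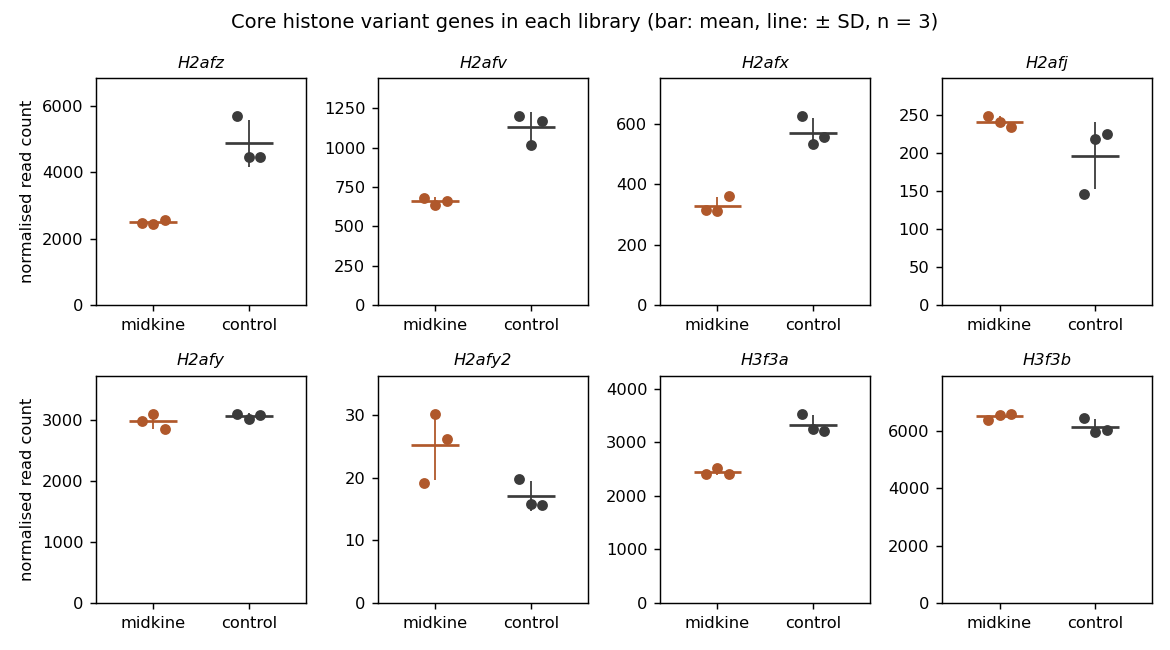
Normalised counts of the core histone variant genes in each library, with midkine left of control, points for libraries and bars for the mean and SD (n = 3 each), each panel on its own linear axis from 0. H2afz, H2afv, H2afx and H3f3a are lower in all 3 midkine libraries, while H3f3b and H2afy overlap between groups.

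The cluster genes can also be described by the annotated length of transcript past the stem-loop. Of the 36 cluster genes with the element, 18 have at least 100 bases of model after it, and 18 have fewer. In the first set 11 genes were tested, and limma called 2 higher and 2 lower, near the 20.9% and 21.8% of all genes. The median of that set was -0.31. Hist1h1c, with 840 bases and a poly(A) signal, Hist1h3d, with 752 bases, Hist1h1e, with 1153, and Hist3h2ba, with 169, were the genes called. In the second set 6 were tested, 1 was called higher and 5 lower, and the median was -1.25. Of these 6, Hist1h2ap, Hist1h2bk, Hist1h4n and Hist1h3a passed the filter only through the group in which they were high, so they had to differ, and 12 genes of the set were not tested. In 8 of the 15 cluster genes with no element found, no base of the model follows the stop codon, so it could not be found. Hist1h1b, Hist1h2aa and Hist1h2an, all called lower, are among these. Of the 15 genes, 8 were tested, 6 were called lower and none higher, and the median was -1.18. Of those called, Hist1h2af and Hist1h2bp passed the filter only through their control libraries.

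The border of 100 bases was set with results of these data known, and no test was made of this split. Level and sequence sharing moved with it: the median normalised count over all genes of the set was 19.5 with the longer models and 6.21 with the shorter ones. In the last 300 bases of the model, 34 of 51 cluster genes and 0 of 10 variant genes held a 50-base stretch also found in another gene model. Where under 10% of those stretches were shared, in 20 genes, 13 were tested, 4 were called lower and 2 higher, and the median was -0.34. Where at least 10% were shared, in 31 genes, 12 were tested, 9 were called lower and 1 higher, and the median was -1.25. This set holds Hist1h2af, Hist1h2ap, Hist1h2bk, Hist1h2bp, Hist1h3a and Hist1h4n, which passed the filter only through the group in which they were high. Over all genes tested, limma called 21.8% lower and 20.9% higher. Hist1h2ap shared 100% of the stretches, Hist1h2an 80.5% and Hist1h2bk 62.5%, so the counts of these near-identical genes are uncertain, while Hist1h1a, Hist1h1b, Hist1h1c and Hist1h3d shared none. The part of level and of sequence sharing in the split was not tested.

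**Figure D4:**
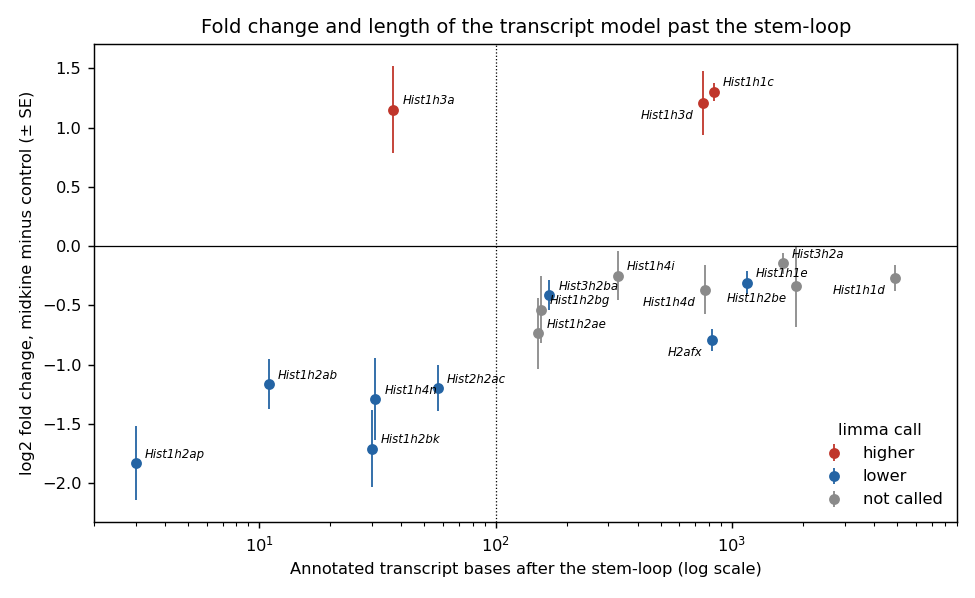
Log2 fold change (midkine minus control) with its standard error against the number of annotated transcript bases after the stem-loop (log scale) for the tested histone genes with a stem-loop, coloured by the limma call. Left of the dotted line at 100 bases, 5 of 6 cluster genes were called lower, against 21.8% of all genes. Of these 6, 4 passed the filter only through the group in which they were high. Right of the line most cluster genes were not called, with Hist1h1c and Hist1h3d higher and Hist1h1e and Hist3h2ba lower. The variant H2afx, also right of the line, was called lower.

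Genes that make and process histone mRNA were lower or not called. Of 22 in the table, 21 were tested, and limma called 12 lower and 0 higher, against 21.8% and 20.9% of all genes, with a median of -0.34. Slbp, whose protein binds the stem-loop, had 119, 120 and 130 normalised counts in midkine libraries against 231, 201 and 236 in control libraries (-0.85, SE 0.12, limma adjusted p = 1.94e-06). Ccne2, a cyclin E that starts S phase, changed by -1.13, Cstf2, for a cleavage stimulation factor subunit, by -0.88, and Ncbp2, for a cap-binding subunit, by -0.68. Npat, the coactivator of cluster histone transcription, was not called (-0.24, limma adjusted p = 0.139), nor were Ncbp1 (-0.12) and Sympk (0.14), and the sign of Sympk was negative with total counts (-0.12).

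Histone chaperones, which carry histones to DNA, had 14 of 28 tested genes called lower and 1 higher by limma, against 21.8% and 20.9% of all genes, with a median of -0.36. Nasp, a chaperone of H3 and H4, averaged 271 ± 21.5 in midkine cultures and 552 ± 29.5 in control cultures (SD, n = 3 each), a change of -1.02 (limma adjusted p = 2.37e-09). Asf1b changed by -1.17, Dnajc9 by -0.87 and Rbbp7 by -0.58, all genes for H3 and H4 chaperones. Asf1a, named after its value was seen, was not called (0.05, limma adjusted p = 0.823). Nap1l1, for a chaperone of H2A and H2B, was the gene called higher (0.39, limma adjusted p = 0.000199), was named after its value was seen, and was not called with total counts (0.13). Atrx and Ubn1, of the pathways that deposit H3.3, were not called (-0.0013 and -0.14). Their partners Daxx (-0.65, limma adjusted p = 1.16e-05) and Cabin1 (-0.34, limma adjusted p = 0.0135) were called lower. Hira (-0.33, limma adjusted p = 0.0518) and Ubn2 (-0.12, limma adjusted p = 0.302), of the same pathways, were not called. Daxx, Cabin1, Hira and Ubn2 were named after their values were seen. The centromere histone gene Cenpa, outside the symbol rule, overlapped between groups and was not called (-0.22, limma adjusted p = 0.124).

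Of 25 genes for S phase and DNA replication, 24 were called lower and 0 higher by limma, against 21.8% and 20.9% of all genes, with a median of -0.95. Mcm7, a subunit of the replicative helicase, changed by -1.34, Uhrf1, which maintains DNA methylation, by -1.30, and Lig1, a DNA ligase, by -0.97, while Cdt1 was not called (-0.22). In these lists and types with 0 genes called higher (cluster H2A, H2B and H4, histone mRNA processing, S phase), 0 were higher at an unadjusted limma p under 0.05, and edgeR and DESeq2 also called 0 higher. Under total counts 25 S phase genes, 17 of the histone mRNA genes and 23 of the chaperone genes were called lower and none higher, where 40.7% of all genes were called lower.

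**Figure D5:**
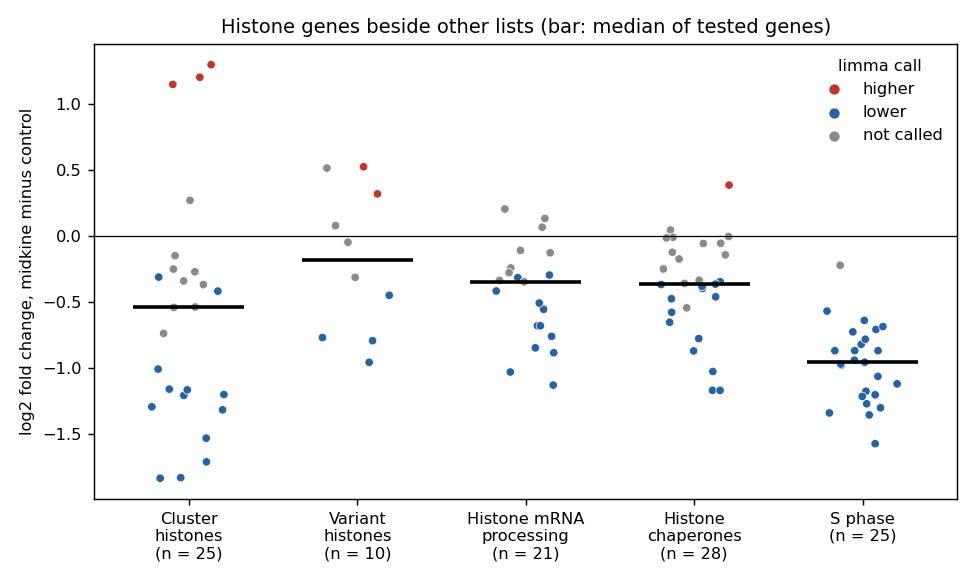
Log2 fold change (midkine minus control) of each tested gene in the cluster and variant histone genes and the related gene lists, with the median of each list as a bar. The medians are -0.54 for cluster histone genes, -0.18 for variant genes, -0.34 for histone mRNA synthesis and processing, -0.36 for chaperones and -0.95 for S phase genes.

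Markers of the cells in these cultures moved in the same comparison, in which 20.9% of all genes were called higher and 21.8% lower. Stroma markers summed to 53878 to 56990 normalised counts in midkine libraries and 19054 to 23203 in control libraries, with 9 of 12 tested called higher and 1 lower. Markers of plasmacytoid dendritic cells, a type the cultures normally hold, summed to 2065 to 2192 in midkine libraries and 7408 to 7652 in control libraries, with 10 of 11 called lower. Type 1 conventional dendritic cell markers were present in every library, with sums of 13195 to 15029 in midkine libraries and 24670 to 28985 in control libraries, and were called lower for 9 of 10 and higher for 1, and type 2 markers were called higher for 5 and lower for 3 of 10. Macrophage markers were called higher for 3 and lower for 4 of 10, and summed to 11658 to 12964 in midkine libraries and 4878 to 7007 in control libraries. Without Gpnmb, the most abundant of them, the other 9 summed to 3250 to 3442 in midkine libraries and 3906 to 5368 in control libraries.

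Progenitor markers, of cells that still divide, summed to 497 to 589 in midkine libraries and 697 to 723 in control libraries. Of 5 tested, Kit (-0.44) and Myb (-2.71) were called lower and Cd34 higher (0.76), while Gfi1 had no read in any library and Elane, Ctsg and Gata2 had none in some. Neutrophil markers summed to 93.8 to 105 in midkine libraries and 547 to 685 in control libraries, with 3 of 4 tested called lower and 1 higher, and Retnlg and Ly6g at 0 in some libraries. B lineage markers were called lower for 3 of 5 and higher for none, with Vpreb1 and Rag1 among those at 0 in some libraries. The part of these markers, and of the ribosomal RNA share, in the changes of the histone genes was not tested.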

How the data were processed

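RNA of 6 bone marrow culture libraries, 3 with midkine and 3 controls, was sequenced with QuantSeq (forward, 3′ ends) from 500 ng of total RNA with a mean integrity number of 8 (range 5 to 10), per the labels. Tools in the submitters' processing notes are DESeq2, HTSeq, SAMtools 0.1.19, Bowtie 1.0.0, TopHat2 2.0.10 and FastQC 0.11.0, with builds mm10 and GRCm38. Whether counting used strand, and which annotation, is not given in the sources used here, so reads of overlapping opposite genes cannot be told apart, and reads in near-identical genes may have been dropped or shared. The authors deposited a signal table, in which each library's counts had been scaled by 1 factor. Dividing by the value of 1 read, which was 0.916 to 1.13, gave whole reads for 100% of values within 1e-06 reads.

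Since the table held scaled values, limma 3.58.1 (R 4.3.3, variance trend) was run on log2(value + 1) for genes with a mean of at least 10, over all 11844 genes, with Benjamini-Hochberg adjustment at 0.05. Alternatives, also on recovered reads with edgeR 4.0.16 and DESeq2 1.42.0, are given at the end. The method was also run on simulated data with few changed genes and known library scaling. These data differ in both, so that run is no check of the scaling used here. The labels do not say that replicate numbers pair samples, so the main fit had no replicate block. Replicates differed by more than counting noise (chi-square per degree of freedom 2.42 to 11.7), so each counted as 1 sample. No molecular identifiers are named, so read counts are not counts of molecules. Transcript models came from GENCODE vM21 and promoters from RefSeq.

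Members and gene lists were chosen with earlier results of these data known. Cluster genes were named as the 8 with the smallest p, the 4 with the highest mean and those called against the majority. Variant genes were named where called, with H3f3b and H2afy as the highest not called, and other members were named to complete a family or after their values were seen.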

Additional observations from a re-analysis of the deposited data

How the results depend on the processing

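Scaling to total counts called 1283 genes higher and 4817 lower, and moved the cluster median to -0.79 and the variant median to -0.43. The variant median was -0.32 with quantile normalization and -0.0445 with H2afx among the cluster genes. H3f3b reversed, to -0.18 with total counts and to -0.22 with quantile normalization. Cluster genes called lower were 6 with a mean of at least 50, where 9 were tested, and 4 with under 10% of shared 50-base stretches, a limit chosen after seeing the data; those called higher were 1 with a mean of at least 50. Variant genes called higher were 1, since H2afj was lost, with a pseudocount of 0.5, no filter, means of at least 5 or 50, total counts with or without ribosomal RNA, quantile normalization, no variance trend, edgeR and DESeq2. The ratio of summed cluster levels was 0.746 without Hist1h1c, a choice made after seeing the data.

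Leaving out 1 library at a time gave 11 to 15 cluster genes called lower, 2 to 3 higher and 1 to 2 variant genes called higher, with a cluster median of -0.69 to -0.40 and a variant median of -0.25 to -0.11 (the last without midkine replicate 1). Fold changes of the 20 named members kept their direction in 392 of 394 comparisons, and the call was lost in 19 and gained in 3. With 3 libraries a group, and 26 of 51 cluster genes under the filter, depth limits what can be said of most core histone genes. Deviations of libraries with the same replicate number correlated at -0.01, 0.03 and -0.06. These values gave no sign that the numbers pair the samples, but they cannot exclude a shared mouse or day. With the replicate number as a block, 14 cluster genes were called lower and 3 higher, and 4 variant genes lower and 2 higher.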
